A study of Mus musculus with 40 samples.

Results

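The genes described here are 5 of the 24060 gene symbols in a table of read counts from mouse striatum: *Atp1b1*, *Atp1b2* and *Atp1b3*, which encode β subunits of the sodium pump, and *Kcnj10* and *Kcnj16*, which encode the potassium channels Kir4.1 and Kir5.1. They were chosen by symbol, and all 5 passed the filter on low counts in all comparisons. The sodium pump (Na+/K+-ATPase) pairs a catalytic α subunit with a β subunit that is needed for folding and delivery to the plasma membrane, and it moves sodium out of and potassium into the cell. Astrocytes are known for clearing the potassium that active neurons release: the pump takes it up, and the inwardly rectifying channel Kir4.1, alone or joined with Kir5.1, sets their negative resting potential and lets potassium pass. In brain, β1 is known as the widespread and neuronal subunit and β2 as a glial one, first described as an adhesion molecule on glia.

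The 40 RNA-seq libraries fall into 10 groups of 4. RiboTag means that a virus makes cells of one type express an HA-tagged ribosomal protein, Rpl22, so that an anti-HA immunoprecipitation (IP) pulls down RNA on the ribosomes of those cells, and the input is RNA of the whole lysate. C57/BL6NTac mice injected at 6 weeks gave the Control IP and input and the neuron IP and input. The neuron libraries come from the human synapsin 1 promoter (hSyn1). The labels do not name the virus of the Control mice. The study's methods give, for mice of this strain, either the astrocyte promoter GfaABC1D or hSyn1, without tying one to the Control libraries. WT C57/BL6J mice and mice of that strain lacking *Dlgap3*, the gene of the postsynaptic scaffold SAPAP3 (SAPAP3 KO; B6.129-Dlgap3tm1Gfng/J), also gave IP and input, with an injection at 4.5 months given for the KO, and no cell type is named in the labels of this IP. The last pair of groups is bulk striatum of WT and SAPAP3 KO mice, labelled C57/BL6NTac, without IP. Each IP is aimed at cells in which the viral promoter was active in the injected dorsal striatum. It enriches their RNA but is not limited to it: astrocyte markers remained in the neuron IP, with the sums given below.

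Totals ran from 23438112 to 84109800 counts per library. Each of the 10 astrocyte markers was higher in the Control IP than in its input, as in both IPs of the SAPAP3 cohort, and all 10 microglial markers were lower in all 4 IPs. Of 9 neuronal markers tested, 2 fell in the Control IP and 3 rose in the neuron IP, past the test and a log2 fold change of 1, with sums of 4201 to 4527 and 8255 to 8535 CPM against 6511 to 6813 and 5890 to 6173 in their inputs. The summed astrocyte markers reached 33196 to 35591 CPM (counts scaled to the same total in every library) in the Control IP, against 4159 to 4354 in its input. In the neuron IP they kept 3911 to 4162 CPM, against 6477 to 6858 in its input. Of the 10, *S100b* alone fell there past the test and a log2 fold change of 1 (-1.14). *Gfap*, *Slc4a4* and *Aldh1l1* had log2 fold changes of 0.02 to 0.66, and the other markers fell by less than 1. Of 10 oligodendrocyte markers, 4 also rose in each IP of the SAPAP3 cohort, with sums of 7098 to 11145 CPM against 6184 to 7182 in its inputs, and all 10 fell in the neuron IP, to sums of 1356 to 2181 CPM. Markers of ependymal cells and choroid plexus moved with the astrocyte markers: all 5 that were tested rose in the Control IP (log2 fold changes of 1.90 to 2.17), and of 6 tested in the SAPAP3 cohort 5 rose in the WT IP and 4 in the KO IP, where *Ttr* fell. Their sums were low, at 52.5 to 116.7 CPM in these 3 IPs against 18.9 to 29.4 CPM in the inputs, and their part in the levels of the 5 genes was not tested. Of 5 mural markers, *Pdgfrb* and *Acta2* rose in the Control IP and the others fell. *Xist* exceeded the Y-linked genes in all 8 neuron libraries and in none of the Control libraries, so a difference between these IPs cannot be told apart from one of sex or cohort.

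The stretches before the first annotated start sites are shown because 3 of these genes part ways in the results: *Kcnj10* and *Kcnj16* rise and fall together, and *Atp1b1* does not. Each is the 250 bases before the start, 5′ to 3′ on the gene's strand, from RefSeq on GRCm38.p6: chr1:172340960-172341209 (plus strand) for *Kcnj10*, chr11:110967783-110968032 (plus) for *Kcnj16* and chr1:164458356-164458605 (minus) for *Atp1b1*. Capitals mark matches on either strand to the letters of the GC box (GGGCGG), of the box named CCAAT, of the TATA box as searched here (TATAAA), of a nuclear factor I half-site (TTGGCA) and of a STAT site (TTCNNNGAA), with no overlap between matches.
Kcnj10: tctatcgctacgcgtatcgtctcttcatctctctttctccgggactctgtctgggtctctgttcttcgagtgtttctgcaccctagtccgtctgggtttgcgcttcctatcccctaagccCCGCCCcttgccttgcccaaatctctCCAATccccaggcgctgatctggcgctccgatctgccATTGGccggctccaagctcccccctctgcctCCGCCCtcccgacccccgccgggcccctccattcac
Kcnj16: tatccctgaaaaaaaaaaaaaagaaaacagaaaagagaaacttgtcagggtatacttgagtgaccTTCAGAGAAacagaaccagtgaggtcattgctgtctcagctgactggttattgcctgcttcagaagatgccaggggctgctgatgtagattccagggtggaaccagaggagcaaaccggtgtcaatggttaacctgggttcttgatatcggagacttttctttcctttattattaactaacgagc
Atp1b1: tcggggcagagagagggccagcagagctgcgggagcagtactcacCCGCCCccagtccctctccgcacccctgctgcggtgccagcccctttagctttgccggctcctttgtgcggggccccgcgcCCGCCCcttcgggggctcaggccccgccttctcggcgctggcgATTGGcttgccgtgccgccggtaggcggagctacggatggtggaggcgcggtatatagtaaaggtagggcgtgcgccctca
The *Kcnj10* stretch held 2 GC boxes and 2 CCAAT boxes at 62.0% GC, that of *Atp1b1* held 2 GC boxes and 1 CCAAT box at 70.4% GC, and that of *Kcnj16* held 1 STAT site and neither box at 42.8% GC. Over 32851 such windows the median GC was 52.4%, and 32.7% held a GC box, 33.8% a CCAAT box and 7.0% the STAT letters, so these are common letters. *Kcnj16* has 4 annotated starts, and the last of them has a GC box and a CCAAT box before it. The gene bodies lie at chr1:164437099-164458355 (minus) for *Atp1b1*, chr9:96332655-96364431 (minus) for *Atp1b3*, chr1:172341210-172374085 (plus) for *Kcnj10* and chr11:110968033-111027968 (plus) for *Kcnj16*; *Atp1b2* is on chromosome 11. All 5 encode proteins, with 2590 to 7047 bases of merged exon, and none has a near-identical copy. Of the *Atp1b1* exon, 202 bases overlap *Nme7* on the other strand, and the strand setting of the counting is not given in the sources used here.

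*Atp1b1* was by far the most abundant of the 5 per length. As FPKM, here CPM divided by the merged exon length in kilobases, it averaged 290.2 ± 8.44 (SD, n = 4) in the Control IP and 524.1 ± 19.8 in the neuron IP, and every group lay between these values. *Atp1b2* averaged 75.4 ± 1.81 FPKM in the Control IP and 8.41 ± 0.401 in the neuron IP, and *Atp1b3* 22.1 ± 1.61 and 8.14 ± 0.727. *Kcnj10* averaged 62.4 ± 3.24 FPKM in the Control IP, close to *Atp1b2*, and 8.19 ± 0.659 in the neuron IP. *Kcnj16* was the least abundant, at 10.8 ± 0.525 FPKM in the Control IP and 1.80 ± 0.278 in the neuron IP. The plot of FPKM by library shows the same ladder for *Atp1b2*, *Kcnj10* and *Kcnj16*: the IPs of the Control and SAPAP3 mice on top, most inputs and bulk tissue between, and the neuron IP and the Control input at the bottom.

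**Figure D1:**
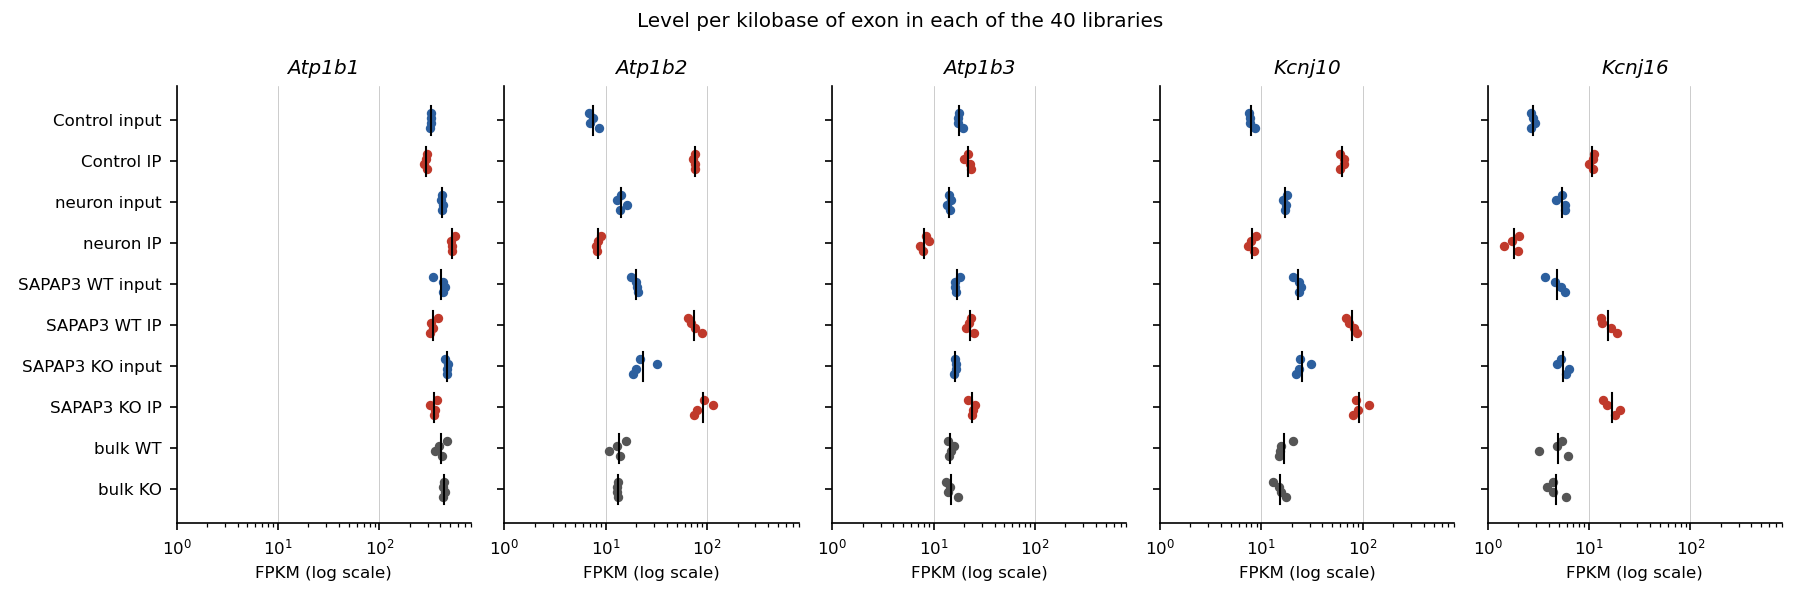
FPKM on a log axis for the 5 genes in 40 libraries, one row per group; points are libraries, vertical ticks are means of 4, red is IP, blue input and grey bulk striatum. *Atp1b1* stays within 290.2 to 524.1 FPKM over the group means, while *Atp1b2* runs from 7.47 FPKM in the Control input to 90.3 in the SAPAP3 KO IP.

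*Atp1b2*, the glial β subunit, gave the third largest rise of 15476 tested genes in the Control IP over its input. Its CPM in the 4 Control IP libraries were 314.5, 301.9, 316.4 and 318.7. The 4 inputs had 28.4, 31.3, 28.8 and 35.6 CPM. IP and input were far apart, with no overlap, and the log2 fold change was 3.56 ± 0.0613 (SE), 11.8-fold (adjusted p = 2.7e-12; quasi-likelihood test of edgeR, adjusted after Benjamini-Hochberg, as are all fold changes here). In the neuron cohort the order turned: the IP had 37.3, 34.8, 33.6 and 33.9 CPM and the input 58.1, 53.7, 67.0 and 57.3 CPM. That fall, by 0.55 ± 0.0664 on the log2 scale (adjusted p = 3.7e-05), passed the test but not the limit of 1 set on log2 fold changes of IP comparisons. In the SAPAP3 cohort the WT IP had 267.5, 287.5, 313.0 and 367.3 CPM over inputs of 73.9 to 87.3, a log2 fold change of 2.09 ± 0.109, and the KO IP 386.8, 477.5, 329.5 and 305.0 over inputs of 77.8 to 131.8, a log2 fold change of 2.18 ± 0.186. Both differences passed (adjusted p = 4.9e-07 and 1.9e-06), and no IP library came near an input.

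*Kcnj10*, the Kir4.1 gene, followed *Atp1b2* closely. In the Control IP it had 419.8, 460.1, 459.5 and 420.7 CPM. Its 4 inputs had 53.2, 54.5, 54.5 and 61.1 CPM, so that the groups were again far apart. The log2 fold change of 3.20 ± 0.0529 (9.20-fold; adjusted p = 2.7e-12) ranked 16th among the tested genes. In the neuron cohort, IP libraries had 63.1, 56.2, 52.2 and 59.2 CPM against 126.8, 114.6, 122.5 and 121.2 in the input. The groups did not overlap, and the fall of 0.87 ± 0.0534 on the log2 scale passed the test (adjusted p = 5.2e-07) but stayed inside the fold limit; scaled to total counts the fall was 1.07, past the limit. The WT IP of the SAPAP3 cohort had 478.9 to 615.2 CPM over inputs of 145.7 to 173.1 (log2 fold change 1.93 ± 0.0994, adjusted p = 4.7e-07), and the KO IP 565.0 to 821.3 over 154.1 to 218.4 (2.09 ± 0.142, adjusted p = 3.7e-07).

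*Kcnj16*, whose product Kir5.1 forms channels with Kir4.1 and carries little current by itself, showed the same pattern at a lower level. The Control IP had 44.9, 44.3, 40.2 and 43.7 CPM and the input 10.8, 11.3, 11.7 and 10.9 CPM. These ranges were well separated, with a log2 fold change of 2.17 ± 0.0544 (4.51-fold; adjusted p = 2.5e-11). *Kcnj16* was the one gene of the 5 that fell past the fold limit in the neuron IP, where 8.21, 7.01, 5.78 and 8.04 CPM stood against 21.5, 19.0, 23.3 and 23.2 CPM in the input (log2 fold change -1.38 ± 0.106, adjusted p = 1.9e-06). In the SAPAP3 cohort it had 53.1 to 75.5 CPM in the WT IP and 14.9 to 23.2 in the WT input, 55.9 to 81.0 in the KO IP and 19.3 to 25.4 in the KO input. The log2 fold changes were 1.84 ± 0.161 and 1.79 ± 0.128 (adjusted p = 8.4e-06 and 5.5e-07).

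*Atp1b1*, the widespread subunit, was the exception. Control IP libraries had 761.6, 751.0, 721.3 and 772.1 CPM, a little under the 819.4 to 843.6 of their inputs. With TMM scaling the log2 fold change was 0.07 ± 0.0340 (adjusted p = 0.068), and its sign turned to -0.15 with total counts and -0.08 with upper quartile scaling, so no direction is given for it. In the neuron cohort it rose: the IP had 1431, 1312, 1343 and 1343 CPM and the input 1070, 1055, 1100 and 1064 CPM. All 4 IP libraries were above all 4 inputs, with a log2 fold change of 0.55 ± 0.0444 (1.46-fold; adjusted p = 2.7e-06), inside the fold limit. In the SAPAP3 cohort its log2 fold change was -0.11 ± 0.106 in WT (adjusted p = 0.39) and -0.22 ± 0.0655 in KO mice (adjusted p = 0.011), inside the fold limit. The WT IP had 815.0 to 989.5 CPM and overlapped with its inputs at 873.2 to 1161, whereas the KO IP, at 815.5 to 949.6 CPM, lay below all KO inputs at 1145 to 1223.

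*Atp1b3*, a β subunit found in many tissues, lay between the extremes. The Control IP had 118.7, 106.9, 124.7 and 126.0 CPM and the input 96.0, 93.3, 94.3 and 105.0 CPM, close but not overlapping. Its log2 fold change was 0.52 ± 0.0542 in the Control mice, 0.61 ± 0.0695 in the WT and 0.74 ± 0.0610 in the KO mice of the SAPAP3 cohort, and -0.61 ± 0.0583 in the neuron cohort, where the IP had 39.4 to 48.6 CPM and the input 73.6 to 80.7. Each of these 4 passed the test (adjusted p between 1.4e-06 and 4.8e-05) inside the fold limit.

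Counted with the fold limit, 3 of the 5 genes rose in the Control IP, where 26.9% of all tested genes were called in either direction, and the same count rose in the WT and KO IPs of the SAPAP3 cohort, where 23.0% and 23.8% were called. In the neuron IP 1 of the 5 fell, where 16.3% of tested genes were called. The median log2 fold change of the 5 was 2.17 in the Control cohort, 1.84 and 1.79 in the WT and KO mice and -0.61 in the neuron cohort, beside medians over all tested genes between -0.03 and 0.00. The plot of IP over input shows *Atp1b2*, *Kcnj10* and *Kcnj16* well above the limit in 3 of the 4 sets of mice and below 0 in the fourth.

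**Figure D2:**
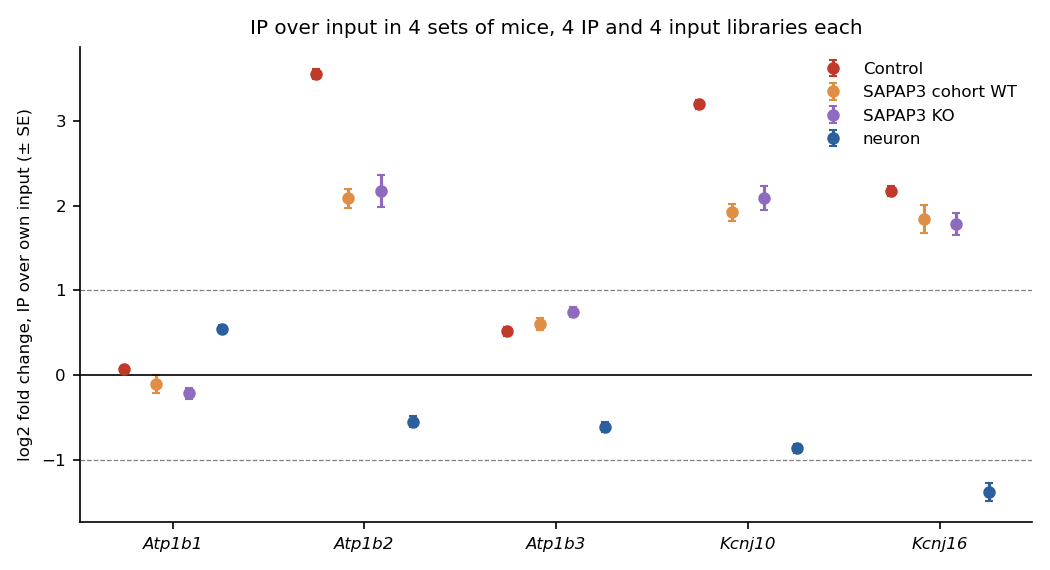
Log2 fold change of IP over its own input (points, ± SE) for the 5 genes in the Control, SAPAP3 cohort WT, SAPAP3 KO and neuron mice; dashed lines mark the limit of 1. *Atp1b2* stands at 3.56 in the Control mice, 2.09 and 2.18 in the SAPAP3 cohort and -0.55 in the neuron mice, whereas *Atp1b1* stays between -0.22 and 0.55.

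The difference between the Control and neuron cohorts was tested directly as an interaction. The IP over input of the neuron cohort minus that of the Control cohort was -4.11 ± 0.0998 for *Atp1b2*, -4.07 ± 0.0802 for *Kcnj10*, -3.56 ± 0.128 for *Kcnj16* and -1.13 ± 0.0828 for *Atp1b3* on the log2 scale. For *Atp1b1* it had the other sign, 0.47 ± 0.0527. All 5 passed (adjusted p between 2.1e-16 and 4.3e-07), in a comparison without a fold limit that called 70.1% of the tested genes.

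Set against each other, the IPs gave the same division. *Atp1b2* was 9.35-fold lower in the neuron IP than in the Control IP (log2 fold change -3.22 ± 0.0438), *Kcnj10* 7.96-fold lower (-2.99 ± 0.0645), *Kcnj16* 6.23-fold lower (-2.64 ± 0.0964) and *Atp1b3* 2.83-fold lower (-1.50 ± 0.0655). *Atp1b1* was 1.73-fold higher (0.79 ± 0.0450; adjusted p = 7.9e-08), short of the limit. The 4 genes that were lower passed (adjusted p between 7.2e-12 and 1.1e-08), where 27.8% of tested genes were called. None of the 5 overlapped between the IPs, but the share of all genes without overlap is not given. In edgeR 12492 of 15468 tested genes had an unadjusted p under 0.05 here, so differences between these IPs were the rule. What was left of *Kcnj10* in the neuron IP, 52.2 to 63.1 CPM, lay beside 3911 to 4162 CPM of summed astrocyte markers there, and the part that RNA of other cells plays in these levels was not tested.

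The inputs themselves differed between cohorts. *Kcnj10* was 2.15-fold higher in the neuron input than in the Control input (log2 fold change 1.11 ± 0.0462, adjusted p = 5.1e-09), the only one of the 5 past the limit where 7.46% of tested genes were called. *Atp1b2* and *Kcnj16* were 1.89-fold and 1.92-fold higher, just inside it, *Atp1b1* was 1.27-fold higher and *Atp1b3* 1.27-fold lower (adjusted p between 1.3e-06 and 2.8e-05). The summed astrocyte markers of the Control input were also the lowest of all inputs, at 4159 to 4354 CPM against 6477 to 6858 in the neuron input. By marker this was uneven: the log2 fold change of neuron over Control input was 0.96 for *Slc1a2* and 0.86 for *Aqp4*. It was 0.25 to 0.55 for *Gja1*, *Slc1a3*, *Gfap* and *Sox9*, 0.05 to 0.08 for *Aldh1l1*, *Aldoc* and *S100b*, and -0.12 for *Slc4a4*. The part of astrocyte RNA in these differences was not tested. In RNA from whole tissue, fewer cells of a type and less RNA per cell cannot be told apart.

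A comparison added after the values were seen set the WT mice of the SAPAP3 cohort against the Control mice. They differ in strain and cohort, the labels give an age at injection for the Control mice only, and *Xist* exceeded the Y-linked genes in 1 of 4 WT and 0 of 4 Control libraries of each kind, so these differences cannot be told apart. In the input, *Atp1b2* averaged 81.9 ± 5.74 CPM in the former and 31.0 ± 3.30 in the latter, a ratio of 2.64, and *Kcnj10* 162.4 ± 11.7 and 55.8 ± 3.54 CPM, a ratio of 2.91. In the IP the ratio was 0.987 for *Atp1b2*, with overlapping libraries, and 1.24 for *Kcnj10*, without overlap. So the smaller enrichment of *Atp1b2* in the SAPAP3 cohort went with a higher input and not with a lower IP. *Kcnj16* was higher by 1.75 in the input and 1.44 in the IP, *Atp1b1* by 1.28 and 1.17, and *Atp1b3* gave 0.940 and 1.04 with overlap. The 7 differences without overlap had p = 0.0286 in a two-sided exact permutation test (adjusted p = 0.0408 over 10 tests). This p is the smallest that 4 against 4 can give. The adjustment covers only these 10 tests, in a comparison chosen after the values were seen. How many of all genes separate between these cohorts was not tested, so the separation cannot be called particular to the genes described here.

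The balance among the β subunits was also followed within each library, as shares of their summed FPKM. *Atp1b1* held most of it in every library. *Atp1b2* held 19.3%, 19.0%, 20.2% and 19.3% in the Control IP and 1.98%, 2.15%, 1.99% and 2.49% in its input. In the neuron IP its share was 1.58%, 1.60%, 1.52% and 1.53%, and in the neuron input 2.97% to 3.55%. The share was thus raised by 17.3 points in the Control IP and lowered by 1.65 points in the neuron IP, with no overlap in either. In the SAPAP3 cohort it averaged 17.1% ± 2.84 in the WT IP, 19.6% ± 3.93 in the KO IP and 4.44% and 4.58% in their inputs. The share of *Atp1b3* was 5.69% ± 0.399 in the Control IP and 5.18% ± 0.322 in the input, which overlapped, and 1.51% ± 0.148 in the neuron IP against 3.24% ± 0.181 in its input.

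The balance of Kir4.1 and Kir5.1 transcripts was followed in the same way. The ratio of *Kcnj10* to *Kcnj16* FPKM, taken at the mean log2 value, was 5.81 in the Control IP and 2.85 in its input, a log2 difference of 1.02 ± 0.0885 (SE). It was 4.58 in the neuron IP and 3.20 in its input (0.52 ± 0.0835), although both genes fell there. In the SAPAP3 cohort IP and input overlapped, with ratios of 5.05 and 4.80 in WT and 5.55 and 4.48 in KO mice. Shares and balance made a family of 32 two-sided exact permutation tests. In 16 of them the groups did not overlap and p was 0.0286, the smallest that 4 against 4 allow, which the Benjamini-Hochberg adjustment over the family brought to 0.0571, so none passed the threshold of 0.05. None of the 12 tests between KO and WT was among these 16. The tests of IP against input treated libraries as unpaired, although IP and input of the same number deviated together. A permutation within pairs was not run, so p = 0.0286 does not take the pairing into account.

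**Figure D3:**
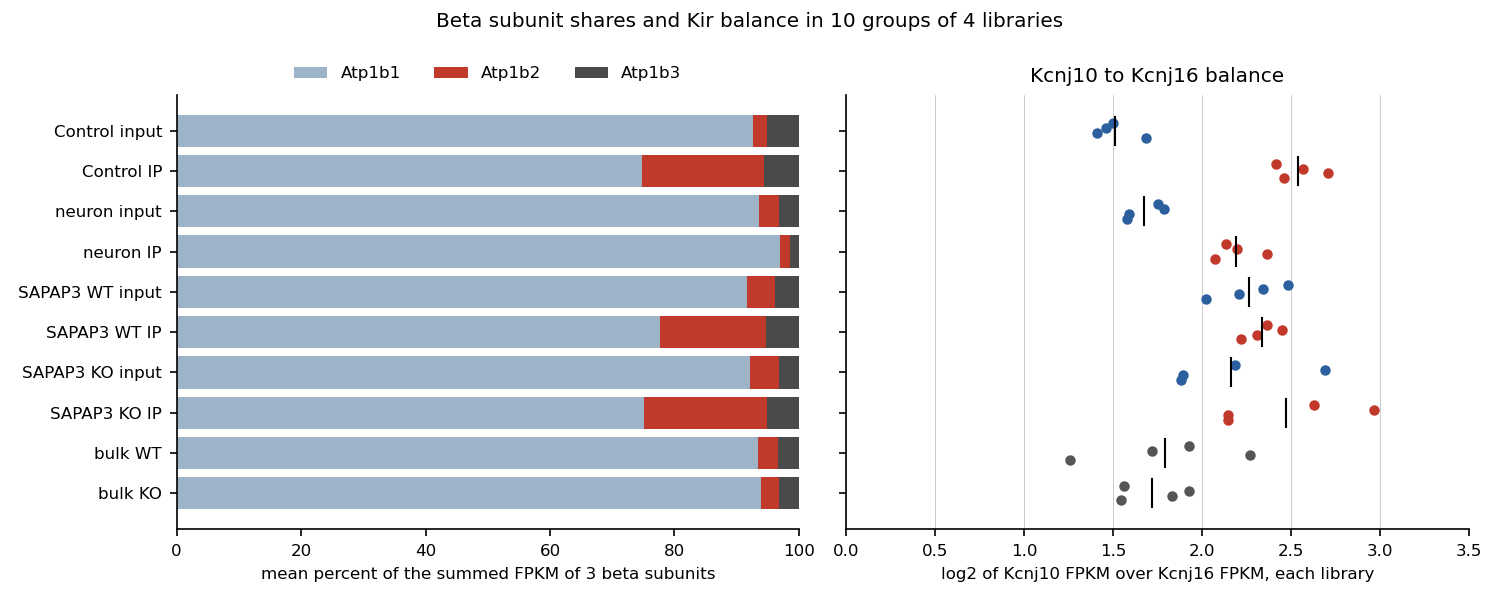
Left, mean percent of the summed FPKM of the 3 β subunit genes in each group of 4 libraries (stacked bars from 0 to 100); right, log2 of *Kcnj10* over *Kcnj16* FPKM per library (points; ticks are means). The *Atp1b2* segment widens from 2.15% to 19.5% between Control input and Control IP and narrows from 3.21% to 1.55% between neuron input and neuron IP.

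The SAPAP3 KO was compared with WT in inputs, IP and bulk striatum. *Dlgap3* itself was lower in all KO libraries: 165.8 to 200.0 CPM against 375.5 to 514.4 in the inputs, 49.8 to 87.2 against 153.5 to 211.9 in the IP and 143.5 to 160.9 against 232.2 to 385.5 in bulk. Its log2 fold change was -1.19 ± 0.101 in the inputs (adjusted p = 0.007), -1.40 ± 0.169 in the IP (adjusted p = 0.028) and -1.14 ± 0.143 in bulk (adjusted p = 0.32, although the groups did not overlap). None of the 5 genes was called in any of the 3, where 0.00641%, 0.0263% and 0.00% of tested genes were called: *Dlgap3* alone in the inputs, and *Dlgap3*, *Hdac1*, *Col16a1* and *1700003M07Rik* in the IP. With no call in bulk, 792 of 16020 tested genes had an unadjusted p under 0.05 in edgeR, about as many as chance alone gives. DESeq2 called 17 in bulk.

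For each of the 5, KO and WT libraries overlapped in all 3 comparisons. *Atp1b2* had the largest difference in the IP, 0.30 ± 0.152 on the log2 scale, with a 95% interval from -0.07 to 0.67, and *Kcnj10* followed with 0.28 (-0.05 to 0.60). In the inputs *Atp1b2* differed by 0.25 (-0.12 to 0.62), *Kcnj16* by 0.23 (-0.12 to 0.58), *Atp1b1* by 0.20 (-0.04 to 0.44), *Kcnj10* by 0.15 (-0.11 to 0.42) and *Atp1b3* by -0.01 (-0.12 to 0.11). In bulk striatum the signs of *Atp1b2*, *Kcnj10* and *Kcnj16* were the other way, at -0.06 (-0.32 to 0.20), -0.16 (-0.45 to 0.14) and -0.10 (-0.59 to 0.39). No adjusted p was below 0.735. The widest of these intervals was that of *Kcnj16* in bulk and the narrowest that of *Atp1b3* in the inputs.

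1 KO mouse stood above the others. Replicate 2 had 477.5 CPM of *Atp1b2* in its IP and 131.8 in its input, where the other KO mice had 305.0 to 386.8 and 77.8 to 90.1. *Kcnj10* was also highest in this mouse, at 821.3 CPM in the IP and 218.4 in the input, but *Kcnj16* was not, at 59.9 and 19.3 CPM. Without its library the difference of *Atp1b2* fell from 0.30 to 0.15 in the IP and from 0.25 to 0.05 in the inputs, and that of *Kcnj10* from 0.28 to 0.14 and from 0.15 to 0.03. The enrichment by IP did not differ detectably between genotypes: the KO minus WT difference in IP over input was 0.05 ± 0.235 for *Atp1b2*, 0.13 ± 0.188 for *Kcnj10*, -0.10 ± 0.223 for *Kcnj16*, 0.10 ± 0.0898 for *Atp1b3* and -0.15 ± 0.127 for *Atp1b1* (none at an adjusted p under 0.05). That comparison called 0.00% of tested genes, none of the 5 among them. Its fit had no term for the mouse that IP and input share, so these SEs also hold differences between mice. A replicate block changed no call. In edgeR 203 of 16059 tested genes had an unadjusted p under 0.05, fewer than chance alone gives, and DESeq2 made 1 call.

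**Figure D4:**
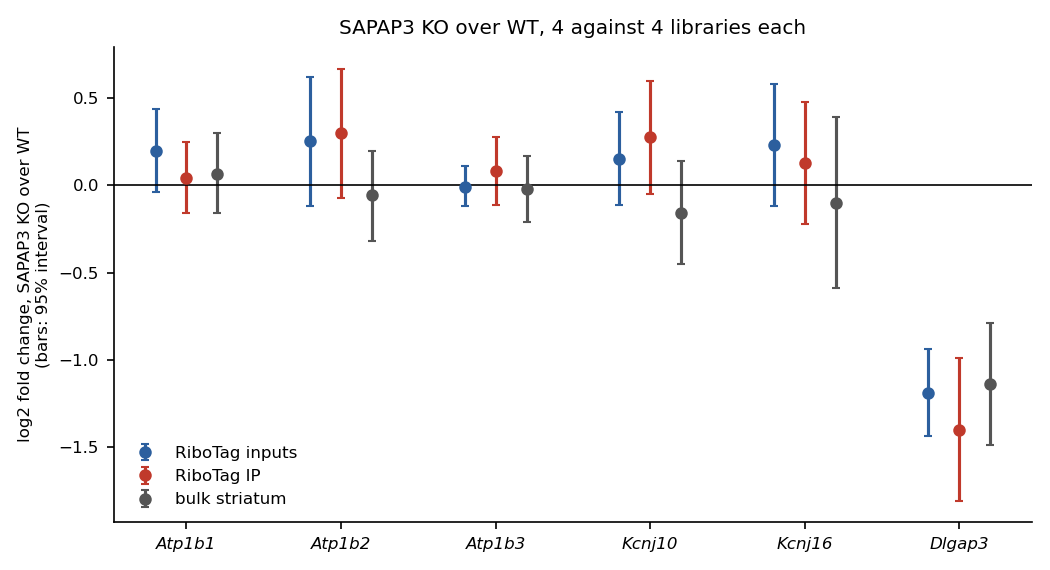
Log2 fold change of SAPAP3 KO over WT for the 5 genes and for *Dlgap3* in RiboTag inputs (blue), RiboTag IP (red) and bulk striatum (grey), 4 against 4 libraries each; bars are 95% intervals. The intervals of all 5 genes include 0, and *Dlgap3* lies between -1.40 and -1.14.

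Of the 7 FXYD genes, small proteins that bind the pump and tune it, 5 were tested in the Control cohort. *Fxyd1* (phospholemman) rose there, with a log2 fold change of 2.26 ± 0.0820, and *Fxyd2* and *Fxyd5* fell, with -2.27 ± 0.102 and -3.68 ± 0.249, where 26.9% of all tested genes were called. The median of the list was -0.56 beside -0.03 over all genes. Between the IPs, 2 of 6 tested were higher and 2 lower in the neuron IP, where 27.8% of all genes were called, with a list median of 0.56 beside 0.01. *Fxyd1* was 6.65-fold lower there and *Fxyd7* 3.52-fold higher. *Fxyd7* was already 1.93-fold higher in the neuron input than in the Control input, and its interaction, the difference in IP over input between these cohorts, was 0.90 ± 0.160 on the log2 scale, against -2.80 ± 0.168 for *Fxyd1*. Of the 4 NKAIN genes, whose products bind β1, *Nkain4* alone was called in the Control IP (2.04 ± 0.0794), and it was also 6.96-fold lower in the neuron IP than in the Control IP.

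Among the other inward rectifiers, of 10 tested between the IPs, 6 were higher and 1 lower in the neuron IP, with a median log2 fold change of 1.11 beside 0.01 over all genes, of which 27.8% were called. *Kcnj9* and *Kcnj6*, G protein gated channels, were 4.20-fold and 4.93-fold higher (2.07 ± 0.140 and 2.30 ± 0.279), and *Kcnj4*, the Kir2.3 gene, 2.46-fold higher (1.30 ± 0.0373). The inputs differed too: *Kcnj6*, *Kcnj3* and *Kcnj9* were 4.12-fold, 3.43-fold and 2.35-fold higher in the neuron input than in the Control input. In the interaction *Kcnj4* kept a difference of 1.91 ± 0.0631 (adjusted p = 6.5e-14) and *Kcnj9* one of 0.86 ± 0.175 (adjusted p = 0.000315), while *Kcnj6* had 0.29 ± 0.329 (adjusted p = 0.448) and *Kcnj3* -0.06 ± 0.228 (adjusted p = 0.827). *Kcnj14* was the 1 that was lower between the IPs, 6.73-fold, at 1.97 FPKM in the Control IP. In that IP *Kcnj10* stood at 62.4 FPKM, and the highest of the 13 other Kir genes, *Kcnj4*, at 16.8.

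Among 13 further genes of potassium and volume handling, 9 rose in the Control IP and none fell, with a median log2 fold change of 1.96 beside -0.03 over all genes, and 8 rose in each IP of the SAPAP3 cohort. Of all tested genes, 26.9% were called in the Control IP and 23.0% and 23.8% in the WT and KO IPs, in either direction. *Aqp4*, the water channel of astrocyte endfeet, had 3.07 ± 0.0880, *Gja1*, the gap junction gene of connexin 43, 2.97 ± 0.0453, and *Mlc1*, mutated in a leukodystrophy with brain swelling, 2.61 ± 0.0496. *Aqp4* and *Gja1* are also among the astrocyte markers above. *Slc12a5*, the neuronal chloride extruder KCC2, had -0.36 ± 0.0455 and was inside the limit. In the neuron IP 3 of the 13 fell past the limit, *Hepacam*, *Gjb6* and *Slc12a2*, where 16.3% of all tested genes were called, 2566 of 2634 of them lower, so that this count is close to the background. Of these FXYD, NKAIN, Kir and volume genes, none was called between KO and WT in inputs, IP or bulk.

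**Figure D5:**
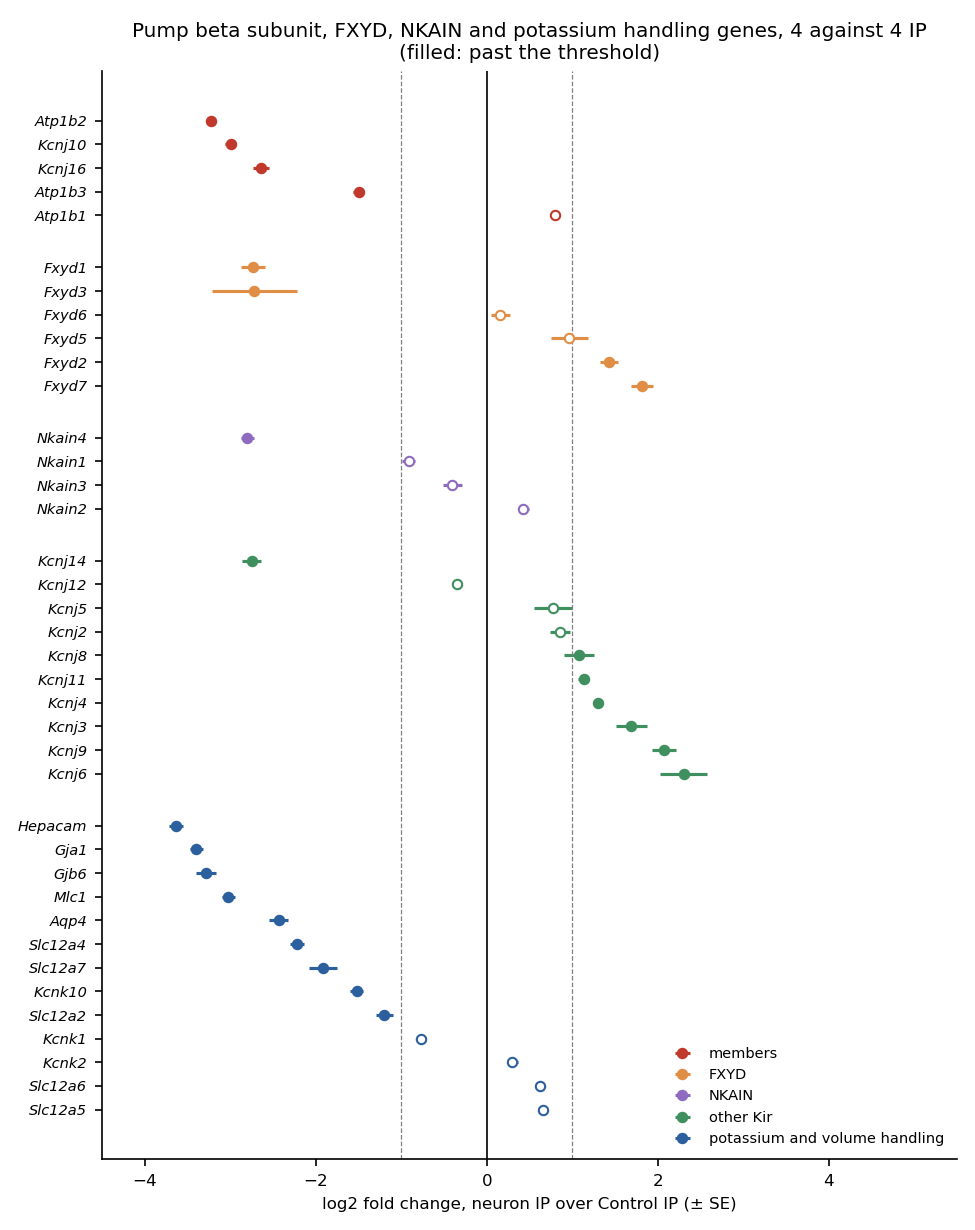
Log2 fold change of neuron IP over Control IP (points, ± SE; filled points passed the test and the dashed limit of 1) for the 5 genes and 4 lists of related genes. *Atp1b2*, *Kcnj10* and *Kcnj16* sit with *Fxyd1*, *Fxyd3*, *Nkain4* and *Kcnj14* on the left at -3.22 to -2.64, while *Atp1b1* and most other Kir genes are right of 0. In the list of potassium and volume handling, *Hepacam*, *Gja1*, *Gjb6* and *Mlc1* lie as far left or further, at -3.63 to -3.02. Its other genes lie to their right, up to *Slc12a5* at 0.65.

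Across the 10 group means of log2(CPM + 1), *Atp1b2* and *Kcnj10* had a Pearson r of 0.993 with each other, and *Kcnj16* had 0.975 with *Kcnj10* and 0.952 with *Atp1b2*. *Atp1b1* ran against all of them, with r between -0.61 and -0.55, and had -0.84 with *Atp1b3*. Over 12585 genes with at least 5 CPM in a group, the patterns most like *Atp1b2* were those of *Sox9*, *Me1*, *Kcnj10*, *Fat1* and *Frmpd1* (0.992 to 0.995), and those most like *Kcnj10* were *Tead1*, *Atp1b2*, *Rb1*, *Nhsl1* and *Sox6* (0.988 to 0.997). *Kcnj16* was nearest to *Ptprz1*, *Fmnl2*, *Kctd12b*, *Afap1* and *Ormdl1* (0.990 to 0.993). *Atp1b3* was nearest to *Gpr137b*, *Zfp36l2*, *Sorbs3*, *Dennd4c* and *Sat1* (0.983 to 0.994), and *Atp1b1* to *A830010M20Rik*, *Pip4k2c*, *Prkar1b* and *Drosha* (0.976 to 0.983). These 10 points share libraries, so the values describe likeness of pattern only.

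In the order of group means, *Atp1b2* and *Kcnj16* were highest in the SAPAP3 KO IP, at 374.7 ± 76.6 and 67.4 ± 11.6 CPM, as was *Kcnj10* at 654.8 ± 114. For *Atp1b2* the 3 IPs of Control and SAPAP3 mice overlapped with their neighbours in the order and stood apart from all other groups. For *Kcnj10* and *Kcnj16* the Control IP stood below both SAPAP3 cohort IPs and above all inputs. *Atp1b3* also had these 3 IPs on top, overlapping, and the neuron IP alone at the bottom. *Atp1b1* had the reverse order at its ends, with the neuron IP on top and the Control IP last, both apart from their neighbours, and the 8 groups between them each overlapped with the next.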

How the data were processed

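Gene counts of 40 mouse striatum libraries were used as the authors deposited them. Per the labels' processing notes and the study's methods, reads were aligned to mm10 with STAR and counted with HTSeq; the annotation and strand setting are not given in the sources used here. The labels name a stranded, ribosome-depleted kit and the methods another kit, so the library chemistry is unsettled. Input RNA came from a part of the same lysate as the IP.

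CPM was computed from total counts, and FPKM from CPM and merged RefSeq exon lengths, found for 23859 of 24060 symbols. Fold changes came from edgeR 4.0.16 (R 4.3.3) with filterByExpr, TMM scaling and the quasi-likelihood test on the groups compared, with Benjamini-Hochberg adjustment over all tested genes. IP comparisons and the comparison of inputs called genes at an adjusted p under 0.05 and a log2 fold change beyond 1 in size, following the study; genotype comparisons and interactions had no fold limit. Intervals of 95% used SE and 6 degrees of freedom. Shares and ratios were compared by two-sided exact permutation tests (scipy 1.17.1). Copies were sought with minimap2 2.31. Alternatives were limma-voom 3.58.1, DESeq2 1.42.0, other scalings and filters, a replicate block, a covariate for *Xist* and leaving out each library.

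The 5 genes and all lists were chosen with earlier results of these data known. Named list genes are members of lists written from textbook roles; likeness names genes among the 5 with the highest r per member. Some results of this kind are not reported here. Libraries of the same number in IP and input deviated together from their group means (r of 0.248 to 0.792 over 11762 genes in all 16 pairs, each best with its own number); neuron IP and input carry different animal numbers in the labels. The replicates were not copies of one another (60 pairs, chi-square per degree of freedom of at least 3.83, 0 identical). The labels do not say whether all libraries are separate animals: the design text names 24 mice, and 1 animal number occurs in both bulk groups, so p-values measure the spread between these libraries. The fits were also run on simulated counts with known changes, called at an adjusted p under 0.05 without a fold limit. Between KO and WT, 78% to 90% of log2 changes of 1 were recovered, and 32% to 50% of those of 0.5. Each of these fits held 100 tested genes of either size of change. Recovery where only a few genes differ was not tested. In the measured bulk libraries *Dlgap3*, with a log2 fold change of -1.14 in KO over WT, was not called (adjusted p = 0.32 in edgeR). False calls made up 4.2% to 9.4% of the calls over all comparisons simulated.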

Additional observations from a re-analysis of the deposited data

Results flagged for a closer look

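The following values stood apart within their group of 4 libraries by Dixon's test at its 95% level. *Kcnj10* reached 145.7 CPM in 1 bulk WT library against 105.1 to 111.2 in the others, and 61.1 CPM in 1 Control input library against 53.2 to 54.5. *Atp1b3* reached 99.3 CPM in 1 SAPAP3 cohort WT input library against 88.4 to 89.3, where its share of the β subunits was 4.92% against 3.37% to 3.56%. The share of *Atp1b1* was 91.9% in the same Control input library against 92.9% to 93.0%. These were 5 of 90 values examined, and chance alone flags about 1 in 20. What sets these libraries apart was not tested.

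IP over input differed between the neuron and Control cohorts for each of the 5 genes by the interaction test, by -4.11 for *Atp1b2*, -4.07 for *Kcnj10*, -3.56 for *Kcnj16*, -1.13 for *Atp1b3* and 0.47 for *Atp1b1* on the log2 scale. That comparison called 70.1% of all tested genes, so 5 calls among the 5 genes are not particular to them. This difference in IP over input cannot be told apart from one of sex or cohort.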

How the results depend on the processing

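Of 966 recalculated log2 fold changes of the 5 genes, 946 kept their direction and their side of the threshold, among them all with limma-voom, DESeq2, DESeq2's size factors in edgeR, no filter and the replicate block, which as a fit changed no call and moved no count by over 1.5 times. A further 3 passed a limit they had missed, and 17 changed sign, none of which had passed a threshold. In Control IP over input, *Atp1b1* was -0.149 with total counts and -0.079 with upper quartile scaling, where the median of all genes moved to -0.25 and -0.18. In neuron IP over input, *Kcnj10* passed the limit with total counts (-1.07) and with the filter at 5 FPKM (-1.06). In bulk KO over WT, *Atp1b1* was -0.009 with an *Xist* covariate and *Atp1b3* 0.004 with total counts. The share of *Atp1b3* in Control IP over input was -0.0473 points with CPM in place of FPKM.

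The filter at 5 FPKM, which tests fewer genes, lowered the genes called to 1705 in the Control, 516 in the neuron, 1264 in the WT and 1424 in the KO IP over input, 1825 between IPs, 475 between inputs and 7108 in the interaction of neuron and Control cohorts. In KO over WT, DESeq2 called 8 genes in the inputs, 8 in the IP, 17 in bulk and 1 in the interaction, against 1, 4, 0 and 0; the cause was not tested. The IP gave 2 with the FPKM filter and 1 with an *Xist* covariate, and the inputs 3 with all 4 groups in 1 fit.

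Leaving out each library in turn gave 0 to 1 called genes in KO over WT inputs, 0 to 3 in the IP and 0 to 1 in bulk. *Atp1b3* ranged from -0.024 to 0.022 in the inputs and -0.094 to 0.024 in bulk, *Atp1b2* from -0.143 to 0.051 and *Kcnj16* from -0.257 to 0.037 in bulk. In the KO minus WT interaction *Atp1b2* ranged from -0.101 to 0.251, *Kcnj10* from -0.012 to 0.254 and *Kcnj16* from -0.200 to 0.021. *Kcnj16* in neuron over Control input ranged from 0.91 to 1.02, passing the limit without neuron input replicate 2. Shares and balance were recalculated this way as values without a p, since 3 against 4 libraries cannot go below p = 0.0571 in a two-sided exact permutation test: the 16 differences without overlap kept their sign, and 6 of the other 16 changed it without 1 library or more. The *Atp1b2* share in KO over WT IP ranged from 0.625 to 3.67 points (2.5 with all libraries), lowest without KO replicate 2, and the balance in WT IP over input from -0.00997 to 0.144. With 4 libraries a group, the width of the genotype intervals limits what could be detected.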
